A study of Mus musculus with 6 samples.

Results

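The genes described here encode UDP-glucuronosyltransferases (Ugt) and cytosolic sulfotransferases (Sult), measured by RNA sequencing of whole mouse kidneys in which adiponectin was overexpressed. Members were the protein-coding genes whose GENCODE M21 symbol starts with Ugt1a, Ugt1b, Ugt2a, Ugt2b, Ugt3a or Ugt3b and a number, or with Sult and a number. The rule found 42 of the 54532 genes in the deposited table, 21 in each family, and used no measured value.

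RNA was pooled from 3 mice for each library, and 3 libraries were made of each group. Control kidneys came from KsprtTA mice, which carry the reverse tetracycline transactivator without the adiponectin transgene, and which the sample labels call wild type. KSPAPN kidneys came from KsprtTA/TRE-Adiponectin mice. The Ksp promoter drives the transactivator in epithelial cells all along the tubule, proximal segments and collecting ducts included, so the transgene was not limited to 1 tubule segment. Every mouse was male, on a C57BL/6 background, and ate chow with doxycycline at 600 mg/kg for 4 days; age was not given with the samples. The transgene's gene, *Adipoq*, had 2, 0 and 2 reads in Control and 24629, 17483 and 26811 in KSPAPN. Reads counted on genes numbered 17183358 to 20871173 per library. KSPAPN replicate 1 had the lowest level of the 6 libraries for 8 of the 13 Ugt and 4 of the 6 Sult genes that passed the filter on low counts, and Control replicate 1 for none of the 19. Differences of the Ugt genes called, and of some other genes, are also given with 1 of these 2 libraries left out.

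Glucuronidation and sulfation are the main conjugation reactions by which hydrophobic drugs, steroids, bile acids, bilirubin and phenols are made water soluble for excretion. Ugt enzymes sit in the membrane of the endoplasmic reticulum and transfer a sugar, usually glucuronic acid from UDP-glucuronate, while Sult enzymes work in the cytosol with the sulfate donor PAPS. In the kidney glucuronidation is best known from the proximal tubule, beside the organic anion transporters that move the conjugates. The 9 mouse Ugt1a genes are built from separate first exons joined to shared last exons, whereas each Ugt2b, Ugt3a and Sult gene has exons of its own.

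The paralogs of the Ugt2b group are so alike that their sequences decide what a read count can tell apart. The first 90 coding bases of the 3 closest paralogs differed at 1 position, shown in capitals (GENCODE M21).

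Ugt2b37: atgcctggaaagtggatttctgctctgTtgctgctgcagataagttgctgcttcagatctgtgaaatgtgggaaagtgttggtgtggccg
Ugt2b38: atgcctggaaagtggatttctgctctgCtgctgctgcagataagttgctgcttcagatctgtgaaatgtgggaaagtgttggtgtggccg
Ugt2b5: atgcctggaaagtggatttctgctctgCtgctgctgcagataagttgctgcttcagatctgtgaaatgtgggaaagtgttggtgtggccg

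Over the whole coding sequence of 1593 bases, *Ugt2b37* differed from *Ugt2b38* at 94 positions (94.1% identity) and from *Ugt2b5* at 85 (94.7%), and *Ugt2b38* from *Ugt2b5* at 47 (97.1%). Of all stretches of 100 bases in their transcripts, 24.2% in *Ugt2b38* and 24.7% in *Ugt2b5* were also found in another gene of the trio, against 1.06% in *Ugt2b37*. Counts of *Ugt2b38* and *Ugt2b5* are therefore uncertain to the extent that the counting left out or shared reads that match both, and those of *Ugt2b37* much less so. *Ugt3a1* and *Ugt3a2* were 93.3% identical over 1572 coding bases and shared no stretch of 100 bases.

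The Ugt1a genes pose a different limit, since the last 740 coding bases are identical in all 9. Between 50.3% and 82.7% of the exonic bases of each Ugt1a gene lie in exons of other genes. *Ugt1a8*, with 59.2%, had 0 to 7 reads per library, so reads on the shared exons were not counted for each of the genes. *Ugt1a7c* has 1915 exonic bases of its own, 917 in its first exon and 998 at the far 3′ end of the locus, downstream of where the models of the other members stop. A transcript from any Ugt1a first exon that runs into that end would be counted for *Ugt1a7c*, so its count is not a count of 1 first exon alone. Most of the 2142 bases that only *Ugt1a6a* covers, 1920 of them, lie between the shared exons, where a single annotated transcript of it keeps introns.

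Of the 42 members, 19 passed the filter on low counts and were tested, 13 Ugt and 6 Sult. No read was counted in any library for 3 Ugt genes (*Ugt2a1*, *Ugt2a2* and *Ugt2b35*) or for 9 Sult genes (*Sult1c1*, *Sult2a1*, *Sult2a2*, *Sult2a4* to *Sult2a7*, *Sult3a1* and *Sult3a2*). At these depths a count of 0 allows a level of up to 0.144 to 0.175 CPM (counts scaled to library size) in a library, for counting error only. Only 30 exonic bases of *Ugt2a1* and 140 of *Ugt2a2* lie outside exons of other genes. A count of 0 therefore says little about these genes if reads on shared exons were left out. A further 11 had reads but too few to be tested. *Ugt1a1*, the bilirubin enzyme of the liver, had 0 to 8 reads per library, *Ugt1a5* 0 to 9, *Ugt1a8* 0 to 7 and *Ugt2b36* at most 1. *Ugt2b1* had 7 reads in KSPAPN replicate 3 and none elsewhere. Of the Sult genes, *Sult2a3* had 11, 5 and 6 reads in Control and 3, 0 and 4 in KSPAPN, while *Sult1e1* (the estrogen sulfotransferase), *Sult2a8*, *Sult4a1*, *Sult6b1* and *Sult6b2* had between 0 and 9. The kidneys thus had reads mainly on a handful of members of each family.

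Levels are given as the deposited FPKM (fragments scaled for the length of the gene model and the size of the library). That length includes shared exons, whose reads were not counted for each Ugt1a gene. The FPKM of Ugt1a genes is therefore low beside that of genes with exons of their own. In Control, *Ugt3a2* and *Ugt2b38* together made up most of the Ugt total, at 42.4% ± 2.81 and 38.3% ± 2.25 of the summed FPKM of the family (SD, n = 3). *Ugt2b37* held 8.53% ± 2.88, *Ugt3a1* 6.30% ± 1.14 and *Ugt1a7c* 2.97% ± 0.124. In KSPAPN the share of *Ugt3a2* was 58.0% ± 6.75, that of *Ugt2b38* 29.7% ± 6.46 and that of *Ugt2b37* 3.11% ± 0.549. By FPKM the order of the 5 highest genes in Control was *Ugt3a2*, *Ugt2b38*, *Ugt2b37*, *Ugt3a1*, *Ugt1a7c*. There *Ugt3a2* and *Ugt2b38* overlapped, as did *Ugt2b37* and *Ugt3a1*. In KSPAPN *Ugt3a1* and *Ugt2b37* changed places and again overlapped.

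**Figure D1:**
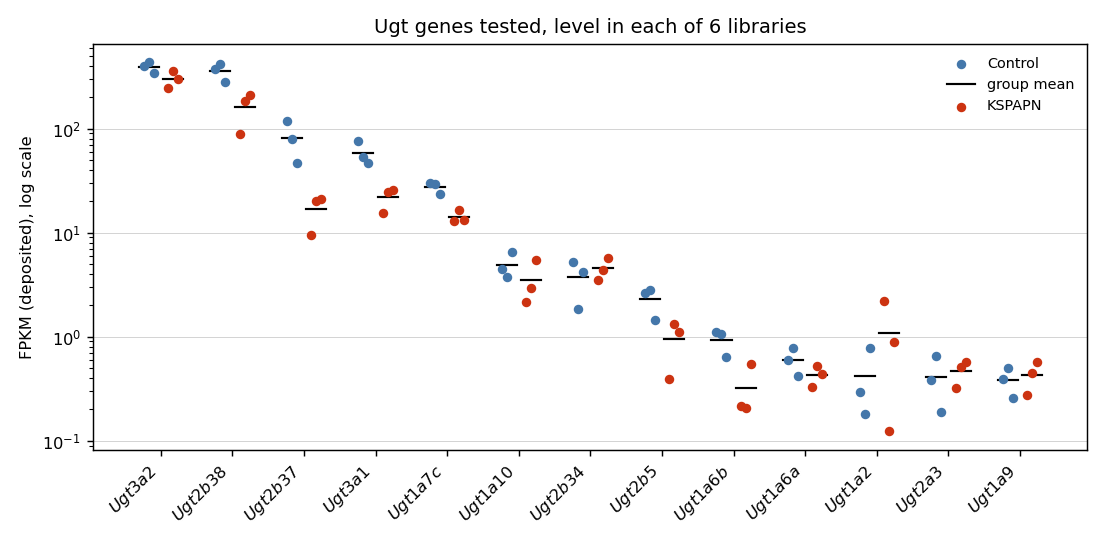
FPKM (log axis) of the 13 Ugt genes tested, ordered by the Control mean, in the 3 Control (blue) and 3 KSPAPN (red) libraries, with black bars at group means. *Ugt2b38*, *Ugt2b37*, *Ugt3a1*, *Ugt1a7c*, *Ugt2b5* and *Ugt1a6b* show every red point below every blue one, while the points of *Ugt3a2* overlap.

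In KSPAPN kidneys 4 Ugt genes fell, *Ugt2b37*, *Ugt3a1*, *Ugt2b38* and *Ugt1a7c*, and no Ugt gene rose, of 13 tested (edgeR, adjusted p under 0.05 over all genes). They were 4 of the 5 Ugt genes with the highest FPKM in Control. Across all 16017 genes tested, 2.25% were called lower and 0.393% higher. Every KSPAPN library lay below every Control library for 6 of the 13 Ugt genes, against 13.5% of all genes, and above for none, against 10.8%. Differences are given as log2 fold changes of KSPAPN over Control ± the standard error of the fit. Their median was -0.49 over the 13 Ugt genes and 0.012 over all genes tested. Before adjustment, 7 Ugt genes were lower with p under 0.05 and none higher. The share of all genes at that unadjusted threshold was not counted, so this number has no background beside it. The same holds for the unadjusted counts of Sult genes and of gene lists below. In no Sult gene did the level pass the adjusted threshold. Whole kidneys were sequenced, so fewer cells of a type and less RNA per cell cannot be told apart.

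*Ugt2b37* showed the largest difference of the members called. Ugt2b enzymes conjugate steroids, bile acids and many drugs. Its FPKM was 119, 79.6 and 46.3 in the Control libraries and 9.54, 20.0 and 20.9 in the KSPAPN libraries. Even the lowest Control library was above the highest KSPAPN library, and the Control libraries themselves spread widely, with replicate 1 highest. The difference of -2.28 ± 0.34 (edgeR, adjusted p = 0.0114) corresponds to a level 4.86 times lower. Leaving out Control replicate 1 gave -1.91 (edgeR, adjusted p = 0.0505), just past the threshold, and leaving out KSPAPN replicate 1 gave -1.98 (edgeR, adjusted p = 0.00840).

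*Ugt2b38*, the most abundant of its group, had an FPKM of 372, 420 and 282 in Control and 88.6, 183 and 212 in KSPAPN. The groups did not overlap, and KSPAPN replicate 1 was the lowest by a wide margin. It fell by 1.15 ± 0.26 on the log2 scale (edgeR, adjusted p = 0.0497), or 2.22 times. This call lay at the threshold. With a single library left out it held only without KSPAPN replicate 1 (-0.84, adjusted p = 0.0164), and edgeR's adjusted p was 0.0538 to 0.193 where 1 of the other 5 was left out. *Ugt2b5*, its closest paralog, was far lower in level. Its FPKM was 2.61, 2.79 and 1.44 in Control and 0.393, 1.33 and 1.12 in KSPAPN, with no overlap, and its difference of -1.28 ± 0.42 was not called (edgeR, adjusted p = 0.135).

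The other Ugt2 genes tested had values without that direction. *Ugt2b34* had an FPKM of 5.21, 1.86 and 4.24 in Control and 3.51, 4.42 and 5.76 in KSPAPN, which overlap (log2 fold change 0.28 ± 0.31). *Ugt2a3* had only 7 to 25 reads per library and a difference of 0.20 ± 0.49. Adding up all Ugt2 genes gave an FPKM of 499, 504 and 335 in Control and 102, 209 and 240 in KSPAPN, so that the summed mean in KSPAPN was 0.412 of that in Control.

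The 3 paralogs *Ugt2b5*, *Ugt2b37* and *Ugt2b38* lie on the minus strand of chromosome 5, at 87124960-87140318, 87240493-87254804 and 87409942-87424203 (GRCm38). They sit in a stretch of 702 kb that also holds the other Ugt2 genes and *Sult1b1*, *Sult1d1* and *Sult1e1*. Of its 13 members 7 were tested, and 2 of them were called. Among 4 other genes tested in that stretch, *Gm5717*, an unprocessed pseudogene at 87162279-87175290 between *Ugt2b5* and *Ugt2b37*, also fell (74, 52 and 40 reads in Control, 13, 6 and 24 in KSPAPN, log2 fold change -2.15, edgeR adjusted p = 0.0350). It was named here after its values were seen.

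Since the 3 paralogs were each lower in every KSPAPN library, their promoters are shown side by side: the 250 bases before the start in RefSeq (GRCm38.p6, minus strand, 5′ to 3′), at chr5:87254789-87255038, chr5:87424204-87424453 and chr5:87140341-87140590. Capitals mark a block of 62 bases that is identical in the 3 genes.

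Ugt2b37: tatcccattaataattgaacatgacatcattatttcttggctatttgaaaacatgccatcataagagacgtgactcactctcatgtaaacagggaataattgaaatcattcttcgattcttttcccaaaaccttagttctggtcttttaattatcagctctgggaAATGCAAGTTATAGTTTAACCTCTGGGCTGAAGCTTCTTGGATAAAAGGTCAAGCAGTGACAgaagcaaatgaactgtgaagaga
Ugt2b38: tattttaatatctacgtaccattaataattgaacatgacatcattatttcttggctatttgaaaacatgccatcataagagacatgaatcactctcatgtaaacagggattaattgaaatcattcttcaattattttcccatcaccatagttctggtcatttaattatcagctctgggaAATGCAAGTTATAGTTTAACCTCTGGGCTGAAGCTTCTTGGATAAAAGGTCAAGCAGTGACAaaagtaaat
Ugt2b5: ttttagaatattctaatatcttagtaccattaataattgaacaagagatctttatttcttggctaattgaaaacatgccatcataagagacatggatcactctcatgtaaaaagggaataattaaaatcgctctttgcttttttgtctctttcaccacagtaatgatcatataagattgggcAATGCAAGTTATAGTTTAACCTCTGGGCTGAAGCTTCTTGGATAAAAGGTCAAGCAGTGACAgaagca

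The block ended 24, 10 and 7 bases before the start of *Ugt2b37*, *Ugt2b38* and *Ugt2b5*. Among the 32851 windows of the same length in the RefSeq table it was found, on either strand, in these 3 genes only. The block was chosen as the longest stretch shared by these 3 promoters, and the genes are near copies. That no other gene holds it therefore says nothing about the fall in level. Over the aligned bases before the start, block included, the promoters had an identity of 94.9% between *Ugt2b37* and *Ugt2b38*, 87.6% between *Ugt2b37* and *Ugt2b5* and 88.3% between *Ugt2b38* and *Ugt2b5*. The block contains the letters AGGTCA, the half-site of many nuclear receptors, which 14.0% of all windows hold on either strand. Of the 17 tested members with a window, 6 held it: these 3, *Ugt1a7c*, *Ugt1a9* and *Sult1b1*. The 3 of the trio hold it in the shared block, so they are not separate cases. The androgen receptor half-site AGAACA was in 7 of the 17, none of them in the trio, and in 16.1% of all windows. The core of the dioxin response element, GCGTG, was in 3 of the 17, all of them Sult genes, and in 28.2% of windows. The antioxidant response core TGACNNNGC was in none of the 17 and in 10.2% of windows. GTTAAT, the half-site of the factor HNF1, was in 7 of the 17 and in 6.43% of windows. Of the genes called only *Ugt3a1* held it, and none of the trio did. The TATA box letters TATAAA were in 1 of the 17, *Ugt3a1*, and in 12.4% of windows. A member was counted if any of its windows held the letters, while the percentages are of single windows, 32851 for 27025 genes. Members with several windows had more chances, so the counts and the percentages are not in the same unit. These are matches of letters within the 250 bases before the start and were not tested as binding sites.

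Ugt3a enzymes differ from their relatives in using sugar donors other than UDP-glucuronate. *Ugt3a1* had an FPKM of 76.0, 53.7 and 46.7 in Control and 15.3, 24.6 and 25.7 in KSPAPN. All 3 KSPAPN libraries lay below the lowest Control library. *Ugt3a1* fell by 1.42 ± 0.21 on the log2 scale (edgeR, adjusted p = 0.0110), or 2.69 times. When Control replicate 1 was left out the difference was -1.20 (edgeR, adjusted p = 0.0505).

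*Ugt3a2*, its neighbour on chromosome 15 (9335550-9370955, with *Ugt3a1* at 9276888-9315032, both on the plus strand), was the most abundant Ugt gene in both groups. Its FPKM was 403, 433 and 343 in Control and 246, 360 and 298 in KSPAPN. The groups overlapped, since KSPAPN replicate 2 was above Control replicate 3. A difference of -0.38 ± 0.14 was not called (edgeR, adjusted p = 0.187). Its 95% interval before adjustment was -0.66 to -0.10 by a normal approximation, which is too narrow for so few libraries.

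Within each library the ratio of reads on *Ugt3a2* to reads on *Ugt3a1* does not depend on depth or normalization. It was 6.16, 9.38 and 8.52 in Control and 18.6, 16.99 and 13.5 in KSPAPN, so the groups did not overlap (exact permutation test, two-sided, p = 0.1, which is as low as 6 libraries can give). The ratio of *Ugt2b38* to *Ugt2b37* was 3.12, 5.26 and 6.09 in Control and 9.27, 9.13 and 10.1 in KSPAPN (exact permutation p = 0.1). The more abundant member of each pair therefore made up a larger part of the pair in KSPAPN in all 3 libraries. By contrast the ratio of *Ugt2b38* to *Ugt2b5* overlapped, at 145, 153 and 200 in Control and 230, 140 and 193 in KSPAPN (exact permutation p = 0.7). These are 3 of 5 ratios computed, and the pairs were chosen with the levels known.

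**Figure D2:**
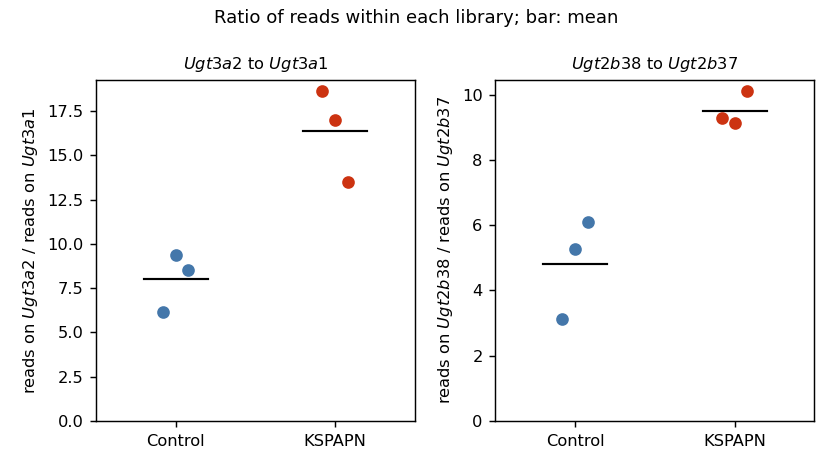
Reads on *Ugt3a2* over reads on *Ugt3a1* (left) and reads on *Ugt2b38* over reads on *Ugt2b37* (right) in each library, on axes that start at 0, with black bars at group means. The 3 KSPAPN points (red) lie above the 3 Control points (blue) in both plots, with means of 16.4 against 8.02 and of 9.51 against 4.82.

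*Ugt1a7c* was the Ugt1a gene with the most reads and had the smallest standard error of the genes called. Ugt1a enzymes conjugate bilirubin, phenols and many drugs. Its FPKM was 30.0, 29.3 and 23.5 in Control and 12.9, 16.5 and 13.2 in KSPAPN. Every KSPAPN library lay below every Control library. It fell by 0.96 ± 0.13 on the log2 scale (edgeR, adjusted p = 0.00704), or 1.94 times. The difference ranged from -1.07 to -0.88 when any 1 library was left out and was called each time. Per kilobase of the bases that *Ugt1a7c* alone covers, its mean level in Control was 62.5 CPM, against an FPKM of 27.6 over its whole model. For *Ugt3a1*, which shares no exon, the same values were 60.5 and 58.8. In the KSPAPN libraries *Ugt1a7c* was at 29.8, 37.0 and 29.7 CPM per kilobase of its own bases. *Ugt3a1* was there at 16.1, 25.0 and 26.4, so the place of *Ugt1a7c* below it by FPKM depends on the length used.

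Of the other Ugt1a genes tested, *Ugt1a6b*, a phenol enzyme, had 49, 44 and 27 reads in Control and 12, 9 and 27 in KSPAPN. Its FPKM did not overlap between groups (0.645 to 1.11 against 0.207 to 0.547), and its difference of -1.52 ± 0.45 was not called (edgeR, adjusted p = 0.104). Its near copy *Ugt1a6a*, 98.4% identical in coding sequence, had 48, 58 and 32 reads in Control and 33, 41 and 39 in KSPAPN, which overlap. *Ugt1a10* had an FPKM of 4.45, 3.76 and 6.55 in Control and 2.14, 2.92 and 5.51 in KSPAPN, with overlap and a difference of -0.48 ± 0.33. *Ugt1a9* had 10 to 26 reads per library and a difference of 0.16 ± 0.44.

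*Ugt1a2* had the highest fold change of the family and the least agreement between libraries. It had 12, 7 and 30 reads in Control and 114, 5 and 41 in KSPAPN, so that the highest and the lowest library were both KSPAPN. Its difference of 1.40 ± 0.80 was not called (edgeR, adjusted p = 0.376), and it was 0.33 when KSPAPN replicate 1 was left out. Summed over the Ugt1a genes, the FPKM was 37.1, 36.1 and 32.3 in Control and 18.2, 20.8 and 21.5 in KSPAPN.

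**Figure D3:**
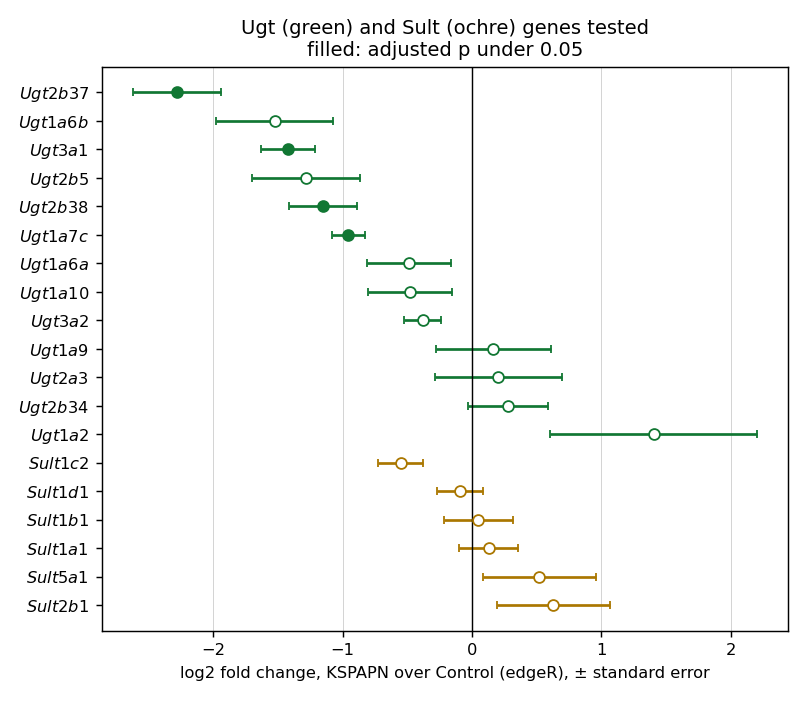
The log2 fold change of KSPAPN over Control with its standard error (edgeR) for the 13 Ugt (green) and 6 Sult (ochre) genes tested, with filled points at an adjusted p under 0.05. The 4 filled points are Ugt genes between -2.28 and -0.96, and the 6 Sult genes lie between -0.55 and 0.63.

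None of the 6 Sult genes tested was called by edgeR, 2 having a log2 fold change below 0 and 4 above it, with a median of 0.089. Before adjustment *Sult1c2* alone was lower with p under 0.05 and none was higher, and DESeq2 called 1 gene, *Sult1c2*. The family was dominated by *Sult1d1*, which sulfates catecholamines and phenols and held 84.0% ± 3.46 of the summed FPKM of the family in Control and 86.2% ± 0.0748 in KSPAPN (SD, n = 3). Its FPKM was 193, 281 and 228 in Control and 162, 242 and 252 in KSPAPN. The libraries of both groups were interleaved. The difference of -0.093 ± 0.18 had a 95% interval of -0.44 to 0.25 by a normal approximation, too narrow for so few libraries. *Sult1d1* lies at 87554645-87569027 on chromosome 5, in the same stretch as *Ugt2b38*. For each read on *Ugt2b38* there were 0.676, 0.870 and 1.05 reads on *Sult1d1* in the Control libraries. In the KSPAPN libraries there were 2.37, 1.72 and 1.55, with no overlap between groups (exact permutation p = 0.1, the lowest that 6 libraries can give). This is another of the 5 ratios, and its pair was also chosen with the levels known. It adds nothing to the levels of the 2 genes.

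*Sult1c2*, on chromosome 17 at 53829637-53846339, had an FPKM of 35.9, 29.9 and 25.7 in Control and 15.2, 24.3 and 22.8 in KSPAPN. The groups did not overlap, though the highest KSPAPN and the lowest Control library were close. A difference of -0.55 ± 0.17 had an adjusted p of 0.121 in edgeR and 0.0355 in DESeq2, and it was -0.35 when KSPAPN replicate 1 was left out. It was the 1 Sult gene of 6 whose groups did not overlap. Of all genes tested, 13.5% had every KSPAPN library below every Control library and 10.8% above, so 1 of 6 does not stand out.

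*Sult1a1*, the general phenol sulfotransferase, had an FPKM of 8.99, 8.95 and 12.2 in Control and 7.49, 10.8 and 14.6 in KSPAPN. The groups overlapped, with a difference of 0.13 ± 0.23. *Sult1b1*, which sulfates thyroid hormones, was near 2 FPKM, with 73 to 113 reads in Control and 86 to 122 in KSPAPN and a difference of 0.048 ± 0.27. *Sult2b1*, a cholesterol sulfotransferase, had 27, 19 and 33 reads in Control and 80, 42 and 22 in KSPAPN, and *Sult5a1* 20, 10 and 30 against 43, 34 and 23. Both overlapped between groups, and their log2 fold changes of 0.63 and 0.52 had standard errors of 0.44 each.

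**Figure D4:**
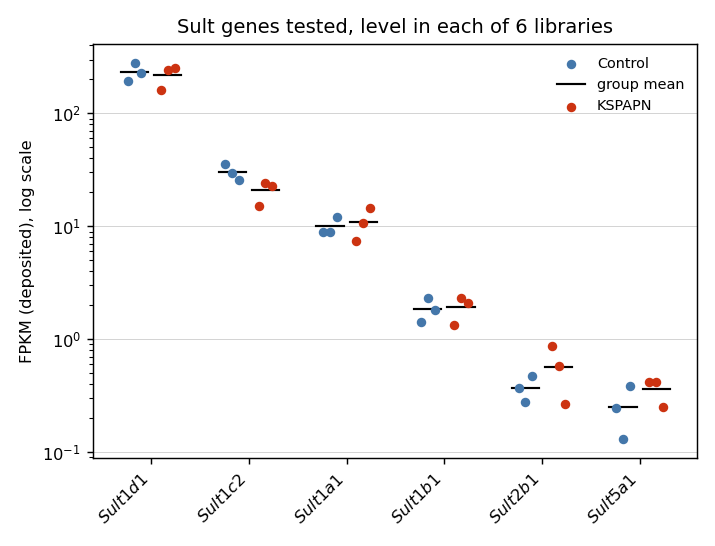
FPKM (log axis) of the 6 Sult genes tested, ordered by the Control mean, in the 3 Control (blue) and 3 KSPAPN (red) libraries, with black bars at group means. *Sult1c2* is the gene whose red points all lie below its blue points, while those of *Sult1d1*, the highest by far, are interleaved.

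The summed FPKM of the Ugt family was 1015, 1028 and 757 in Control and 382, 614 and 585 in KSPAPN, and the mean in KSPAPN was 0.565 of that in Control. The Sult family summed to 241, 323 and 269 FPKM in Control and to 187, 281 and 292 FPKM in KSPAPN, a ratio of the means of 0.914. The Ugt sums did not overlap between groups and the Sult sums did. No test was made of these sums, which are set largely by *Ugt3a2*, *Ugt2b38* and *Sult1d1*.

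The genes around the conjugation step were taken from lists of pathway genes. Of 11 genes tested that make or use UDP-glucuronate and its products, 3 fell and none rose, with a median log2 fold change of -0.27. *Miox*, which opens myo-inositol to glucuronate, had an FPKM of 1037, 916 and 800 in Control and 566, 618 and 626 in KSPAPN (log2 fold change -0.60, adjusted p = 0.0268, edgeR). *Akr1a1*, which reduces glucuronate, fell by 0.60 on the log2 scale (adjusted p = 0.0340, edgeR) and *Cryl1*, which oxidizes gulonate, fell by 0.40 (adjusted p = 0.0407, edgeR). *Miox* makes glucuronate while *Akr1a1* and *Cryl1* act in its breakdown, and in each of these 3 the groups did not overlap. *Ugdh*, which makes UDP-glucuronate and is named for that step, had a difference of -0.092 ± 0.11.

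Of 12 genes tested for sulfate uptake and the supply of PAPS, 1 fell and none rose, with a median of 0.034. *Slc26a1*, a sulfate carrier of the basolateral membrane, had an FPKM of 39.0, 34.2 and 33.3 in Control and 16.4, 20.0 and 23.8 in KSPAPN (log2 fold change -0.82, adjusted p = 0.0136, edgeR). The genes highest in level, *Bpnt1*, which clears the spent donor, and *Papss2*, which makes PAPS, had log2 fold changes of -0.035 and 0.10 and overlapping groups. Thus 1 carrier of sulfate was lower while neither of these enzymes passed the test.

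Of 6 genes of deconjugation tested, the lysosomal sulfatase *Arsg* fell (log2 fold change -0.68, adjusted p = 0.0365, edgeR) and none rose, with log2 fold changes of 0.038 for *Sumf1*, the activator of sulfatases, and 0.037 for *Arsb*, the highest 2 in level. Of 9 carriers of conjugates tested, *Slc22a6*, the organic anion transporter of the basolateral membrane, fell (FPKM 265, 293 and 257 in Control, 187, 197 and 206 in KSPAPN, log2 fold change -0.46, adjusted p = 0.0388, edgeR) and none rose in edgeR. DESeq2 called 1 higher, the organic anion carrier *Slco4c1*, named after its values were seen. It had an FPKM of 7.27, 9.19 and 7.70 in Control against 9.92, 11.7 and 10.4 in KSPAPN, without overlap (log2 fold change 0.41, adjusted p = 0.0840 in edgeR). *Slc22a8*, the next in level, overlapped, with a log2 fold change of -0.15. None of 12 transcriptional regulators tested was called by edgeR, and DESeq2 called 2 lower. Before adjustment 4 were lower with p under 0.05 and 1 higher. *Hnf4a*, the highest of them in level, had a log2 fold change of 0.034 and overlapping groups.

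**Figure D5:**
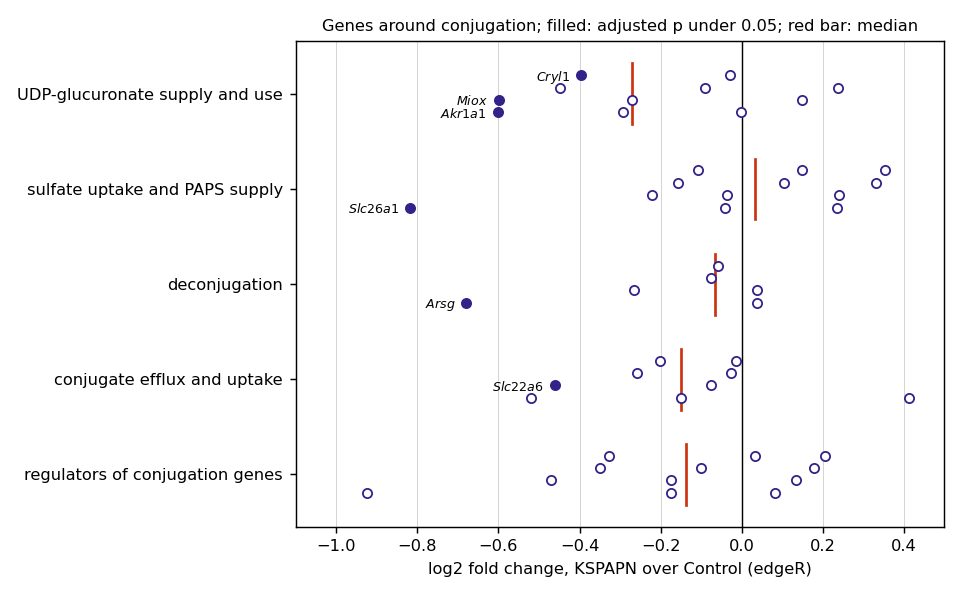
The log2 fold change of KSPAPN over Control (edgeR) for each gene tested in 5 lists around conjugation, with filled points and names at an adjusted p under 0.05 and red bars at list medians. The 6 filled points all lie below 0, from -0.82 for *Slc26a1* to -0.40 for *Cryl1*.

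Some markers of cell types and of sex moved with the groups, and their part in the Ugt differences was not tested. Of 12 proximal tubule markers tested, *Slc7a13*, of the last proximal segment, fell (FPKM 316, 376 and 227 in Control, 61.5, 149 and 122.8 in KSPAPN, log2 fold change -1.46, adjusted p = 0.0259, edgeR), as did *Slc22a6*, while 10 were not called. Of the 12, 10 had a log2 fold change below 0 and 2 above it, with a median of -0.22. DESeq2 called 3 of them lower. The summed FPKM of the 12 did not overlap between groups, at 3393 to 3849 in Control and 3008 to 3234 in KSPAPN. None of the 12 was at 0. *Slc34a1* and *Slc27a2*, the highest, had log2 fold changes of -0.15 and -0.018. Of 12 markers of the thick ascending limb, distal tubule and collecting duct, *Slc12a1* rose (log2 fold change 0.52, adjusted p = 0.0437, edgeR). None fell in edgeR, with 3 lower before adjustment (p under 0.05), while DESeq2 called 1 lower, *Slc4a1*, the anion exchanger of acid-secreting collecting duct cells, named after its values were seen (log2 fold change -0.71, adjusted p = 0.0893 in edgeR). The 12 had sums of 1463 to 1660 FPKM in Control and 1425 to 1956 in KSPAPN. All 6 glomerular markers had a log2 fold change above 0 and none was called by edgeR, with 1 higher before adjustment (p under 0.05) and 0 called by DESeq2. The glomerular sums overlapped, at 39.6 to 60.6 in Control and 56.6 to 78.2 in KSPAPN.

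Of 9 genes listed as higher in male kidney, 3 fell and all 9 had a log2 fold change below 0, with a median of -0.52. *Cyp7b1* had an FPKM of 55.7, 91.3 and 58.1 in Control and 11.2, 20.0 and 16.7 in KSPAPN (log2 fold change -2.10, adjusted p = 0.00581, edgeR). *Cyp2e1* and *Slc22a28* fell by 0.82 and 0.77 on the log2 scale (adjusted p = 0.0399 and 0.0388, edgeR). *Kap*, an androgen-dependent gene of the proximal tubule and the highest of the list, overlapped between groups (log2 fold change -0.32). Its libraries decided the list's sum, which was 23442 to 35587 in Control and 16525 to 27626 in KSPAPN. Of 4 genes listed as higher in female kidney none was called by edgeR, with 1 lower before adjustment (p under 0.05) and 0 called by DESeq2, and their median was -0.41. That median rested on Control replicate 1, and was 0.20 when this library was left out, an alternative chosen after seeing the data. Control replicate 1 was the highest of all 6 libraries for 3 of the 4 genes. Among them, *Slc7a12* had an FPKM of 12.6, 0.729 and 2.71 in Control and 0.962, 1.26 and 1.30 in KSPAPN, and *Prlr*, the prolactin receptor, 3.56, 0.387 and 1.29 against 0.694, 1.19 and 1.15, both named after their values were seen. The median of the 9 genes listed as higher in male kidney was -0.54 without the same library, with all 9 still below 0 and 1 called lower. Control replicate 1 is also the library without which *Ugt1a7c* alone of the Ugt genes was called, and its part in the Ugt differences was not tested beyond that.

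The labels' text on RNA extraction speaks of liver although the tissue is given as kidney, so liver markers were checked. *Alb*, the most abundant liver mRNA, had an FPKM of 1.14 to 2.56 in Control and 0.275 to 4.46 in KSPAPN, and 3 of the 8 liver markers had too few reads to be tested. The 8 summed to 81.2 to 157 FPKM in Control and 49.7 to 78.4 in KSPAPN, most of it *Ttr*. *Ttr* was the 1 of 5 tested that fell (FPKM 128, 145 and 69.6 in Control, 50.3, 63.4 and 38.3 in KSPAPN, adjusted p = 0.0388, edgeR). The kidney markers *Umod* and *Slc34a1* were at 542 to 795 and 980 to 1368 FPKM. Of 6 adipocyte markers, *Fabp4* was at 7.78 to 12.2 FPKM and the others at 1.13 or less.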

How the data were processed

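Reads per gene were counted by the authors, who deposited raw counts and FPKM for 6 libraries of oligo(dT)-enriched mRNA. The deposited counts are whole numbers without normalization, and the deposited FPKM are scaled by the authors for gene length and library size. Per the labels, the submitters' processing notes name STAR 2.5, TopHat, HTSeq 0.6.1, DESeq2 and edgeR, without roles. For build, annotation, strandedness and the treatment of reads that match several genes, the answer is "not given in the sources used here". Of 10985 genes with at least 100 counts in Control replicate 1, 95.3% had an FPKM that fits the exon length of GENCODE M21 within 1%. Of 54532 genes, 54409 were matched to M21 (GRCm38) and 123 were not.

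Counts were compared with edgeR 4.0.16 in R 4.3.3 (TMM normalization, filter with a minimum count of 10 and total of 15, quasi-likelihood test, two-sided, Benjamini-Hochberg adjustment over 16017 genes), checked on simulated counts. Alternatives were DESeq2 1.42.0, RLE factors, total counts only, no filter, limma 3.58.1 on log2(FPKM + 1) and log2(FPKM + 0.1), a replicate block, a trend against GC content and length removed from each library (natural splines, 5 degrees of freedom), and each library left out. The study's own test, on FPKM, was replaced because counts were available. Symbols were matched by Ensembl identifier. RefSeq promoter windows (GRCm38.p6) matched 36 of the 42 members, 17 of the 19 tested. The members and gene lists were chosen with earlier results of these data known. Every member tested is named; of each list, the genes called and the 2 with the highest mean FPKM are named, and others are said to be chosen otherwise. A few items are not reported here. Libraries are pools, so p-values measure the spread between pools of 3 mice. Replicate numbers were not taken as pairs in the main test, because not every same-numbered pair correlated above 0.1. Whether the numbers mark pairs is not settled by that cutoff. Reads carry no molecular identifiers, and the other experiments of the study were not analysed here.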

Additional observations from a re-analysis of the deposited data

How the results depend on the processing

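The number of Ugt genes called was 4. It was 6 with DESeq2, which added *Ugt1a6b* and *Ugt2b5*, 3 with RLE factors and with total counts only, where *Ugt2b38* was lost, and 4 with the GC content and length correction. It was 8 with no filter on low counts (7 lower and *Ugt1a2* higher) and 2 with limma on log2(FPKM + 1) and on log2(FPKM + 0.1), *Ugt1a7c* and *Ugt3a1*. With each library left out it was 1 to 4, the lowest without Control replicate 1, where *Ugt1a7c* alone was called. Over all genes, 34 were then lower and 5 higher, against 361 and 63 with all libraries, 60 and 5 when KSPAPN replicate 3 was left out, and 571 and 162 when KSPAPN replicate 1 was left out. Calls over all genes also moved with the method. DESeq2 gave 744 lower and 181 higher, and no filter 1038 and 301, each of 29418 genes. With limma they were 118 and 10 on log2(FPKM + 1) and 109 and 10 on log2(FPKM + 0.1). The number of Sult genes called was 0, and 1 (*Sult1c2*) with DESeq2 and with no filter; it was 0 to 0 with each library left out. *Ugt3a1* and *Ugt1a7c* were called under all 9 alternatives that keep all libraries, *Ugt2b37* under 7 and *Ugt2b38* under 5.

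Of 283 log2 fold changes of the 19 members under 15 alternatives, 250 kept their direction and their side of the threshold, 13 lost a call, 8 gained one and 12 changed sign, and DESeq2 gave no adjusted p for 2 more. None of the 12 belonged to a gene called. With 1 library left out the values of *Sult1a1* ran from -0.13 to 0.36, of *Sult1b1* from -0.12 to 0.27, of *Sult1d1* from -0.22 to 0.096, of *Ugt1a9* from -0.092 to 0.43, of *Ugt2a3* from -0.13 to 0.71 and of *Ugt2b34* from -0.045 to 0.58. The GC content and length correction gave -0.061 for *Sult1b1*, and -0.062 together with the replicate block. Without Control replicate 1, an alternative chosen after seeing the data, the median log2 fold change of the female-biased kidney genes went from -0.41 to 0.20 and that of the male-biased ones from -0.52 to -0.54. The causes of these changes were not tested.

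With the replicate number as a block 4 Ugt and 0 Sult genes were called, the same 4 Ugt genes, also after the GC content and length correction. Over all genes the block gave 705 lower and 224 higher. The deviations of same-numbered libraries from their group means correlated at 0.0537, 0.154 and 0.173, each Control library best with its own number, which is a hint from the data and not from the design.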
